A study of Mus musculus with 2 samples.

Results

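Convoluted proximal tubule cells of control mouse kidney are described here, 1918 cells from 1 droplet single-cell RNA library. They were chosen by their own UMI counts (UMIs are molecular tags, each standing for 1 captured transcript). A control barcode was taken with at least 500 UMIs, at least 200 genes and at most 50% of UMIs from mitochondrially encoded genes. It also needed 4 or more UMIs summed over Slc5a2, Slc5a12, Slc34a1 and Slc6a19, no Slc7a13, fewer than 3 UMIs of Slc12a1, Slc12a3 and Aqp2 together, and fewer than 5 of C1qa, C1qb and C1qc together. The members were 30.5% of the 6295 control barcodes that passed the quality limits (Clopper-Pearson interval 29.3 to 31.6), of 28678 barcodes in the series. The series holds 1 library of kidney with folic acid (FA) nephropathy, in which folic acid given in excess injures the tubules, and 1 control library. Both are labelled wild type. The sources used here do not give the dose, the time after FA, any vehicle, or the number and age of the animals. Since each condition is 1 library, no difference has a replicate check and no test was run. Sums carry exact Poisson intervals, shares Clopper-Pearson intervals and ratios exact conditional binomial intervals, all at 95% and all covering counting error only.

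The proximal tubule takes back most of what the glomerulus filters. Its convoluted part carries high-capacity apical carriers for glucose, phosphate and neutral amino acids, a dense brush border and a megalin-cubilin endocytic apparatus, and it burns fatty acids and makes glucose and ammonia. The straight part, the S3 segment, carries Slc7a13, a high-affinity glucose carrier and many organic anion carriers. The transcription factor Hnf4a is known to drive many of these genes.

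Promoters of genes that the members carry are shown because the factor Hnf4a was itself read in the cells. Hnf4a reached 311 CPM (UMI counts of a gene per 1000000 summed UMIs of a group) in the members, against 26.5 in the other control cells, a ratio of 11.7 (10.8 to 12.7). The windows run from 250 bases before to 20 bases after the start of transcription, from RefSeq on GRCm38.p6. Capitals mark matches on either strand to the HNF4 motif CAAAGTCCA with up to 1 mismatch. Slc34a1 (chr13:55399398-55399667, plus strand) encodes the apical sodium-phosphate carrier and Lrp2 (chr2:69586010-69586279, minus strand) encodes megalin. Slc3a1 (chr17:85028097-85028366, plus strand) encodes the heavy chain of the cystine carrier and Slc7a7 (chr14:54409453-54409722, minus strand) a basolateral amino acid exit carrier.
Slc34a1: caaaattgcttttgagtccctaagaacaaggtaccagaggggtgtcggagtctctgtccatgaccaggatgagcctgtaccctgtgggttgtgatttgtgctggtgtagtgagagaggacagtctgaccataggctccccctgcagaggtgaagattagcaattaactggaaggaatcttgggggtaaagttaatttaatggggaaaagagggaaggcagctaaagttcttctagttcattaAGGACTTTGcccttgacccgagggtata
Lrp2: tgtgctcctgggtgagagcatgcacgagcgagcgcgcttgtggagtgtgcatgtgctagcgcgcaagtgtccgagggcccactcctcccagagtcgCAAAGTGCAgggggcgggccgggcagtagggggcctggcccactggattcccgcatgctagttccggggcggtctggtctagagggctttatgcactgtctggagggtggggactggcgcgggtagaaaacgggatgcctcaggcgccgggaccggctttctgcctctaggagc
Slc3a1: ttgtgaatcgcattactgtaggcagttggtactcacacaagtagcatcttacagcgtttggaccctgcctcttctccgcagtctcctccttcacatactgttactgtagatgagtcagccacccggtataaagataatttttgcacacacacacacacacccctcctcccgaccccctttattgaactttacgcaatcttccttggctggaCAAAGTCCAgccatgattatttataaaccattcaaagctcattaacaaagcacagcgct
Slc7a7: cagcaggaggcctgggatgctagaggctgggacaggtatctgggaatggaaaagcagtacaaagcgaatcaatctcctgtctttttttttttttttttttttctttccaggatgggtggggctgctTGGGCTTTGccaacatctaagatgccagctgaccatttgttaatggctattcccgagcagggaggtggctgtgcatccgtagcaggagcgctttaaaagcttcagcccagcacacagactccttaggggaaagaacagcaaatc

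Of 90 genes in the lists of carriers described below, 73 were in the RefSeq promoter table, and their windows of 300 bases held an HNF4 match in 18 genes (24.7%). Over all promoters of the table the match stood in 2604 of 27025 genes (9.64%). Among the 18 were Slc22a19, Slc22a28, Slc22a29 and Slc22a30, which lie near each other on chromosome 19. Their matches stood 105, 104, 86 and 110 bases before the start, so these genes may not count as separate cases. The promoters printed above were taken from genes with a match. Of the 20 genes with the highest ratio of members to other control cells, 16 were in the table, with a match in 1 (Cyp2d26). A match is a stretch of letters, not a site of binding.

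The FA library held 18997 barcodes and 84138607 UMIs, and the control library 9681 barcodes and 63646459 UMIs. The libraries differed in sex-linked genes: Xist, made by the inactive X chromosome, had 104149 UMIs in FA and 15 in control, whereas the Y-linked gene Ddx3y had none in FA and 3928 in control. Sex and treatment therefore cannot be told apart. The libraries shared 54 barcodes, and 13 of the members had a barcode that also stood in FA. They also used different versions of gene names: after joining 230 pairs of synonyms, 888 names above 0 in the members (0.345% of their UMIs) were listed at 0 throughout FA, and these have no FA ratio.

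The members held a median of 7832 UMIs and 2445.5 genes. Of the 5 markers of the convoluted segment, 4 had chosen the cells, so their levels only describe them. Slc5a2, the low-affinity glucose carrier SGLT2, stood at 1011 CPM in the members, 44.1 in S3 cells and 27.9 in the other control cells. Slc5a12, a lactate carrier, stood at 527, 27.5 and 13.7 CPM in the same order, Slc34a1 at 5571, 5190.0 and 175, and the neutral amino acid carrier Slc6a19 at 578, 85.6 and 16.7. The rule fixes part of these differences. Lrp2, the marker that the rule did not use, stood at 1127 CPM in the members, 1466 in S3 cells and 55.6 in the other control cells. S3 cells are the 219 control barcodes with 2 or more Slc7a13 UMIs under the same limits (3.48% of kept barcodes, 3.04 to 3.96).

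The 4 rule carriers together took a median of 8115 CPM per member (marker share), and 1652 members (86.1%) reached a marker share of at least 2000. These 1652 are called core members. The share is made of the genes that chose the cells, so it describes them and is no check of the label. The other 266 (13.9%, 12.4 to 15.5) had a median of 1033, a median mitochondrial share of 1.78% against 21.2% in the core, and more RNA of other cells: their summed macrophage markers stood at 691 CPM against 168 in the core, and their endothelial markers at 507 against 120. The macrophage sum includes Cd74, the class II invariant chain, and stood at 9818 CPM in control lymphocytes that were not members. It is thus not a reading of macrophages alone. A cell type that should lack the carriers gives the background. Of 918 control lymphocytes, defined by 3 or more UMIs of T and B cell markers, 5.12% (3.79 to 6.75) also had 4 or more UMIs of the rule carriers, while 2.83% reached a marker share of 2000. Of the members, 42 (2.19%, 1.58 to 2.95) were lymphocytes by this definition. Slc5a2 stood at 7.45 CPM in lymphocytes that were not members. Leaving the members out took away lymphocytes with 4 or more rule UMIs, so the rule fixes part of this low level.

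**Figure D1:**
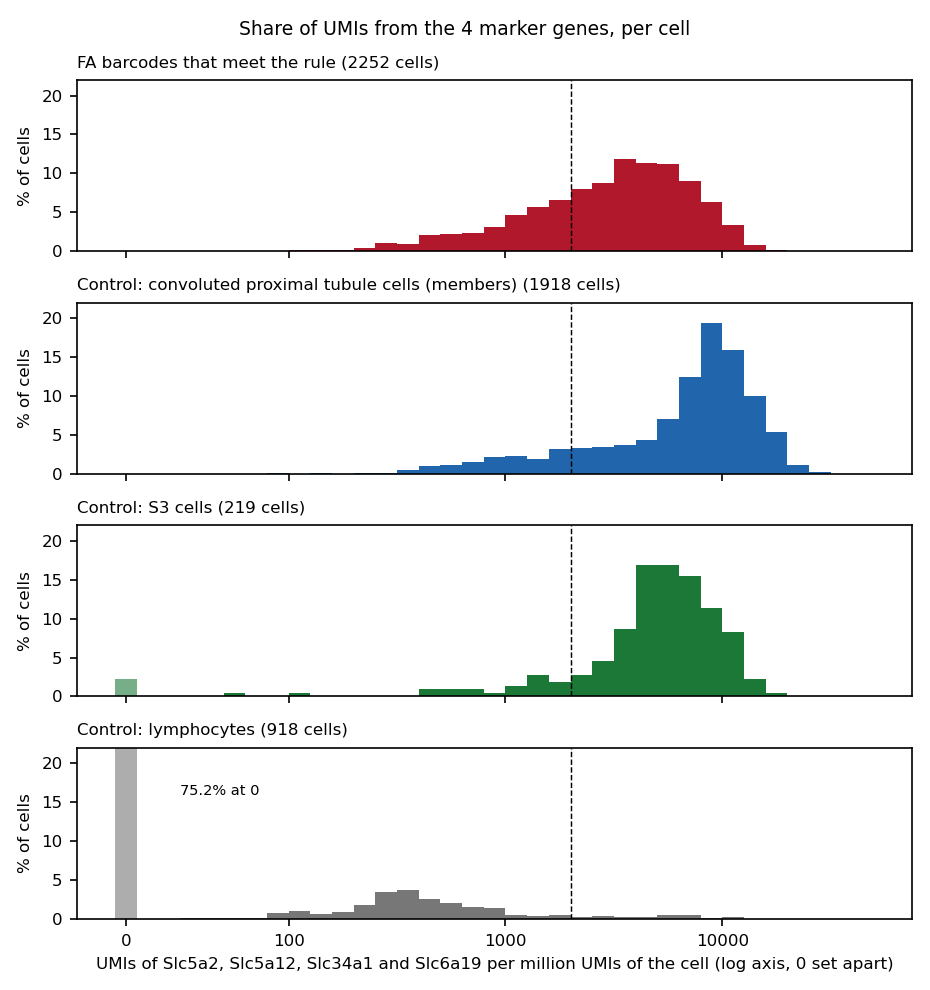
Histograms of the marker share per cell (UMIs of Slc5a2, Slc5a12, Slc34a1 and Slc6a19 in CPM, log axis; vertical, percent of cells) in FA barcodes that meet the same rule (2252), the members (1918), S3 cells (219) and control lymphocytes (918), with a dashed line at 2000 and barcodes at 0 set apart (the lymphocyte bar at 0 runs past the axis). Most members lie right of the line and 75.2% of lymphocytes are at 0, while 13.9% of the members lie left of the line.

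Around the threshold of 4 rule UMIs Lrp2 was low on both sides, and Igkc was higher just inside. Barcodes with 2 rule UMIs (160) had 182 CPM of Lrp2 and 23750 CPM of the immunoglobulin light chain Igkc, and those with 3 (113) had 198 and 24556. Just inside, members with 4 (61) had 154 and 43776 and members with 5 (47) had 210 and 52810. The 1432 members with 20 or more had 1275 CPM of Lrp2 and 1532 of Igkc. In summed counts, members at the edge had far less Lrp2 and far more Igkc than those with 20 or more. Of all 1918 members 19 (0.991%, 0.597 to 1.54) had 10 or more Igkc UMIs, so the Igkc sums rest on few cells. Likely doublets, 272 of the members (14.2%, 12.6 to 15.8), were kept, and any distal or macrophage UMI of the rule stood in 91 and 58 members.

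Against the other 4158 kept control cells, the members were marked by apical and basolateral carriers, amino acid breakdown and glucose production. Of 17386 genes measured (20 or more UMIs over both groups), 17.8% stood at least 1.5-fold higher in the members and 49.1% at least 1.5-fold lower, with a median log2 ratio of -0.55 over all of them. The 20 highest ratios outside the rule ran from 22.2 to 37.0. At their head stood Spp2, a secreted phosphoprotein, with 1459 CPM in the members and 39.4 in the other cells, and Apob, the apolipoprotein of lipid particles, with 367 and 10.1. Carriers filled much of the rest. They were Slc34a3 (the second renal sodium-phosphate carrier, ratio 35.1), Slc4a4 (the basolateral sodium bicarbonate carrier, 29.5), Cltrn (28.2), Slc2a2 (the basolateral glucose carrier GLUT2, 26.8), Slc18a1 (a monoamine carrier, 22.4) and Slc6a20b (a proline carrier, 22.2). The enzymes among them were Cyp2d26 (28.3), G6pc (28.3), Dnase1 (27.7), Nox4, an NADPH oxidase (23.4), Car14, a carbonic anhydrase (23.0), and Cyp2d12 (22.6). Amn (22.4) anchors cubilin in the membrane, and F13b (26.7), Lrrc19 (34.4), Tmem174 (22.8) and the long noncoding RNA Snhg11 (25.8) were also in the group.

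By list, 14 of 16 measured genes of amino acid transport stood higher in the members and none lower (median log2 ratio 2.86), as did 10 of 11 of phosphate, sulphate and dicarboxylate transport (2.48). Of 22 organic ion carriers 19 stood higher and 2 lower (3.51), and of 18 genes of sodium, acid-base and water transport 14 stood higher and 1 lower (1.80). Of 14 genes of gluconeogenesis and ammonia 13 stood higher and 1 lower (3.09). Amino acid breakdown and creatine synthesis had 19 of 20 higher (3.22), fatty acid oxidation 21 of 26 (1.32), nuclear-encoded oxidative phosphorylation 31 of 32 (0.97) and mitochondrially encoded genes 13 of 13 (1.56), none of them lower. Megalin endocytosis had 10 of 16 higher and 1 lower (1.04). Of 18 immediate early and stress genes none stood higher and 17 stood lower (-3.55), and of 19 tubular injury genes 4 stood higher and 14 lower (-1.51). All these medians kept their sign under every alternative run, from -4.25 to -3.00 for the stress list and from -2.56 to -0.93 for the injury list. The other cells are a mixture of types, and their median depth was 4111.5 UMIs.

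Inside the proximal tubule the carriers divided by segment. Members were set against the 219 S3 cells of the same library. Of 13641 genes measured, 25.4% stood at least 1.5-fold higher in the members and 11.1% lower, with a median log2 ratio of 0.17. Of 10 genes of glucose and sugar transport that the rule did not use, 3 stood higher in the members and 3 lower (median -0.26). The high-affinity glucose carrier Slc5a1 (SGLT1) had 0.679 CPM in the members and 50.9 in S3 cells, a ratio of 0.0134 (0.00671 to 0.0242). Slc5a10, a mannose and fructose carrier, had 11.7 and 247 CPM (0.0475, 0.0403 to 0.0558), and the lactate carrier Slc5a8 had 1.98 and 180.1 (0.0110, 0.00756 to 0.0155). These 3 apical carriers all stood far lower in the members. Slc2a2 ran the other way, with 281 CPM in the members and 122 in S3 cells (2.30, 2.04 to 2.60). So did Slc5a9 with 38.6 and 24.2 CPM (1.60, 1.22 to 2.13), and the fructose carrier Slc2a5 with 87.7 and 48.7 CPM (1.80, 1.49 to 2.19).

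**Figure D2:**
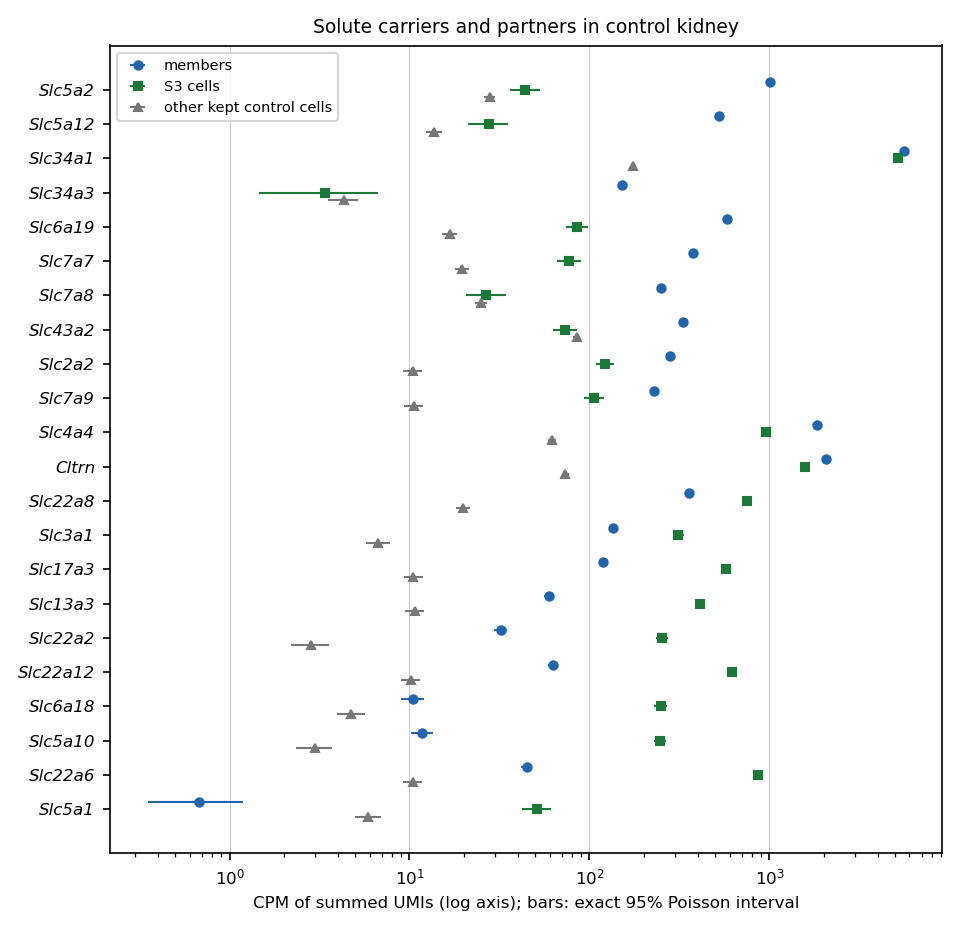
CPM on a log axis of 22 carriers in the members (circles), S3 cells (squares) and the other control cells (triangles), with exact Poisson intervals. Slc34a3, Slc7a8 and Slc7a7 lie well to the right of S3 cells in the members, and Slc5a1, Slc6a18, Slc5a10 and Slc22a6 well to the left of S3 cells.

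For phosphate, Slc34a1, a gene of the rule, had 5571 CPM in the members and 5190.0 in S3 cells, and Slc34a3 had 151 CPM in the members and 3.39 in S3 cells, a ratio of 44.6 (22.6 to 104). Slc13a3, the basolateral dicarboxylate carrier, had 59.7 and 412 CPM. The sulphate carrier Slc13a1 had 313 and 425 CPM, a difference under 1.5-fold. Slc4a4 had 1831 CPM in the members and 956 in S3 cells, and the water channel Aqp1 had 89.8 and 395. The sodium-proton exchanger Slc9a3 was alike in both, with 49.5 and 43.6 CPM (ratio 1.13, 0.923 to 1.40).

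Amino acid carriers were mixed. Of 18 measured, 6 stood higher in the members and 7 lower, and the list's median was -0.23, or 0.06 with cells thinned to 2000 UMIs. These basolateral exit carriers stood higher in the members: Slc7a8 had 249 CPM in the members and 26.7 in S3 cells, Slc7a7 had 378 and 77.1, Slc43a2 had 331 and 73.3, and Slc3a2, the heavy chain shared by Slc7a7 and Slc7a8, had 320 and 81.4. Other basolateral carriers stood lower: Slc6a13 had 20.7 CPM in the members and 83.5 in S3 cells, and Slc38a3, a glutamine carrier, had 0.170 and 9.32. Of the apical cystine carrier, the light chain Slc7a9 had 228 CPM in the members and 106 in S3 cells, while its heavy chain Slc3a1 had 135 and 312. Slc6a18, a neutral amino acid carrier of the same family as Slc6a19, had 10.5 CPM in the members and 249 in S3 cells (0.0420, 0.0354 to 0.0496). Cltrn, the partner of both, was within 1.5-fold at 2073 and 1581 CPM.

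Organic ion carriers stood mostly lower in the members, 14 of 21 against 2 higher (median -1.05, from -1.26 to -0.86 over the alternatives). Slc22a6 (OAT1), the basolateral organic anion exchanger, had 44.8 CPM in the members and 865 in S3 cells, a ratio of 0.0518 (0.0477 to 0.0563). Slc22a8 (OAT3) had 359 and 748 CPM, the urate carrier Slc22a12 had 62.8 and 619.6, and the cation carrier Slc22a2 had 32.1 and 253. The members' exceptions were Slc22a29, with 22.7 and 1.27 CPM, and the efflux pump Abcc4, with 52.1 and 26.7.

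The endocytic apparatus was shared between the segments. Lrp2 had 1127 CPM in the members and 1466 in S3 cells (ratio 0.769, 0.742 to 0.797), Cubn (cubilin) 215 and 235, and Amn 217 and 220. The folate receptor Folr1, which is taken up with megalin, had 420.1 and 428 CPM. Dab2, the cytosolic adaptor of megalin, was 1 of 2 higher genes of 16, with 688 and 368 CPM. The list's median was 0.05, and -0.12 when scaled by the median ratio. The list of brush border enzymes and scaffold was mixed. Mep1a (93.3 CPM in the members, 703 in S3 cells) and Ggt1 (153 and 1176) stood lower, as did Napsa (49.5 and 1459), also in the list. The dipeptidase Dpep1 (163 and 34.7) and the alkaline phosphatase Alpl (343 and 149) stood higher. In all 3 of 17 stood higher and 8 lower.

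In metabolism the lists were mixed. Amino acid breakdown and creatine synthesis had 4 of 20 higher and 7 lower (median -0.34), and antioxidant and detoxification genes 5 of 19 higher and 7 lower (-0.46). Gatm, the first enzyme of creatine synthesis, had 2655 CPM in the members and 352 in S3 cells (7.55, 7.05 to 8.10), and the proline enzyme Prodh2 had 246 and 62.3. Gpx3, the plasma glutathione peroxidase that the tubule secretes, had 32126 and 10044 CPM. Fatty acid oxidation genes stood lower in 16 of 26 and higher in 3 (median -0.76, from -0.92 to -0.72). The fatty acid carrier and ligase Slc27a2 had 515 CPM in the members and 2790 in S3 cells, and the omega-hydroxylase Cyp4a10 had 21.2 and 306. The 3 that stood higher were the fatty acid binding protein Fabp3 with 395 and 44.1 CPM, the thiolase Acaa2 with 438 and 233, and Fabp1 with 7.24 CPM in the members and no UMI in S3 cells. For gluconeogenesis, Pck1, which makes phosphoenolpyruvate, had 851 CPM in the members and 1471 in S3 cells, while G6pc had 647 and 341 and Fbp1 had 1939.7 and 1443. None of 32 nuclear-encoded genes of oxidative phosphorylation and none of 13 mitochondrially encoded genes passed 1.5-fold in either direction.

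Both enzymes that set the level of active vitamin D stood higher in the members. Cyp27b1, which makes calcitriol, had 36.4 CPM in the members and 2.54 in S3 cells (14.3, 6.55 to 39.2), and Cyp24a1, which breaks it down, had 59.4 and 11 (5.39, 3.66 to 8.30). Kl, the co-receptor of FGF23, was alike at 264 and 210.2 CPM, and the parathyroid hormone receptor Pth1r had 363 and 468. Among transcription factors, Hnf4a was alike in both segments (311 and 288 CPM). Maf had 1278 CPM in the members and 485 in S3 cells.

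The 10 highest ratios of members to S3 cells were led by Jchain, the antibody joining chain, at 361.9 CPM against no UMI in S3 cells, at least 285-fold against a floor of 3 UMIs. Jchain stood at 17193 CPM in lymphocytes and in 1.45% of thinned members. Next came Gc, the vitamin D binding protein, with 139 CPM in the members and 1.70 in S3 cells (82.1, 32.0 to 301), then Acss1, a mitochondrial acetyl-CoA synthetase (329.8 and 5.93), Slc34a3, Apob (367 and 12.7), Spp2 (1459 and 71.2), Pde1a (102 and 5.51), Klk1, Cd74 and the ornithine aminotransferase Oat (320.2 and 27.5). Klk1, a kallikrein of the distal tubule, had 113 CPM in the members but 1650.4 in the other cells, and Cd74, the class II invariant chain, had 217 and 10916. At the other end stood Cyp2a4 (1.98 CPM in the members, 316 in S3 cells), Acsm3 (1.30 and 148), Slc5a8, Kap, the fatty acid carrier Cd36 (3.62 and 216), Cyp2d9 (4.30 and 227), Mogat1 (2.72 and 132), Azgp1 (4.81 and 172), Tmigd1 (8.55 and 297) and Napsa. Kap, an androgen-driven kidney protein of unknown function, had 485 CPM in the members and 39160 in S3 cells (0.0124, 0.0121 to 0.0127).

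Of 17 tubular injury genes 12 stood higher in the members than in S3 cells and none lower, with a median of 1.35 that came to 0.53 in core members and 0.42 with thinned cells. Spp1 (osteopontin) had 1350 CPM in the members and 263 in S3 cells. Vcam1 had 15.8 and 9.32 CPM, Clu (clusterin) 18.8 and 3.39, and the keratin gene Krt18 had 15.1 and no UMI. Markers of other cells also stood higher in the members: the summed macrophage markers were at 247 CPM against 25.4 in S3 cells, the endothelial ones at 178 against 93.7 and the intercalated ones at 22.1 against 0.848. Their part in the result was not tested. In core members Vcam1 stood at 7.20 CPM and Clu at 8.40. Of 18 stress genes 7 stood higher, at a median of 0.45 that turned to -0.16 in core members and to -0.36 in thinned cells.

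Outside the immunoglobulins, a nuclear RNA had the highest ratio of variance to mean, among genes with a mean of at least 0.5 UMIs per thinned cell. After each cell was thinned to 2000 UMIs (127 shallower members left out), the highest ratios outside the immunoglobulins belonged to Malat1 (186), mt-Cytb (54.1) and Kap (49.8). Their means were 94.6, 104 and 1.39 UMIs per thinned cell. The ratio can rise with the mean, so it does not rank variation relative to level. Igkc stood at 643, with UMIs in 14.9% of cells. Malat1, a long noncoding RNA that stays in the nucleus, had no UMI in 574 of 1791 members (32.0%), 1 to 9 UMIs in 61 and 10 or more in 1156. Few cells lay between 0 and 10. Of the thinned members 68.0% (65.7 to 70.1) had a Malat1 UMI, against 71.0% (64.3 to 77.0) of S3 cells and 99.5% (98.7 to 99.9) of lymphocytes.

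**Figure D3:**
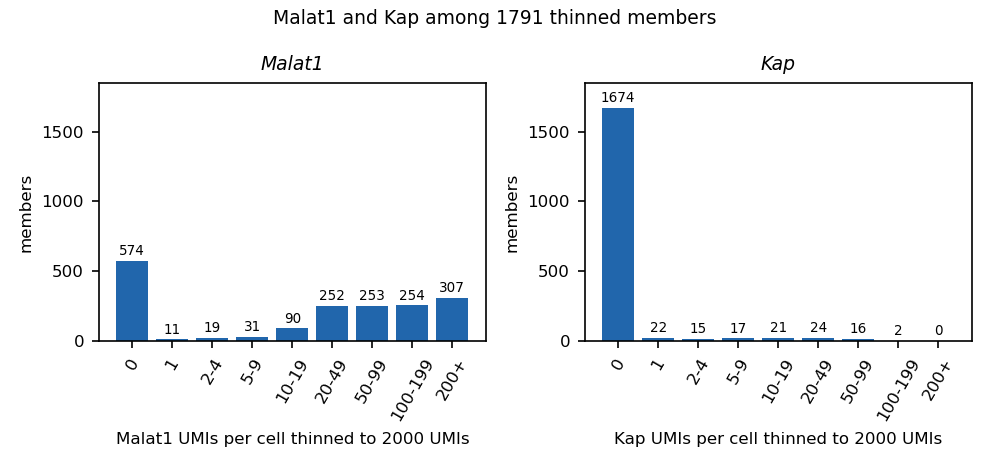
Number of members (of 1791 thinned to 2000 UMIs) by Malat1 UMIs per cell on the left and by Kap UMIs per cell on the right. Malat1 has 574 cells at 0 and a broad group from 10 upward, and Kap has 1674 cells at 0 and 80 at 5 or more.

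Members without Malat1 also had little of other nuclear RNAs. Set against members with 10 or more, 8.72% of 13249 measured genes stood at least 1.5-fold higher and 43.9% lower. The long noncoding RNA Kcnq1ot1 had 1.48 CPM in members without Malat1 and 244 in members with it, Neat1 had 13.6 and 590.2, and Snhg11 had 7.90 and 760.0. The messenger Ogt had 5.92 and 199.6 CPM. Immediate early genes went the same way, 15 of 18 lower and none higher, with Fos at 17.5 and 212 CPM and Jun at 35.0 and 311. Of the genes picked after their values were seen, Ftl1, the ferritin light chain, had 12589 and 5897 CPM, and Gapdh, an enzyme of glycolysis, had 2600.3 and 1328. Of 32 nuclear-encoded genes of oxidative phosphorylation 26 stood higher and none lower (median 0.71). The mitochondrially encoded genes did not follow, with none of 13 past 1.5-fold. Among carriers, against the 43.9% of all genes, 10 of 16 for amino acids and 11 of 20 for organic ions stood lower and none higher. For glucose and sugars 4 of 9 stood lower and none higher, and for sodium, acid-base and water 7 of 18 lower and 1 higher. The rule carriers together took a median of 3796 CPM in members without Malat1 and 9108 in members with it, and the part of this was not tested. The cells without Malat1 held a median of 6086.5 UMIs and 1881 genes, against 9813 and 2980.5, at mitochondrial shares of 19.5% and 19.7%. The part of depth in these differences was not tested.

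Kap split off a small group. It had no UMI in 1674 thinned members, 1 to 4 in 37 and 5 or more in 80. Before thinning, these 80 held a median of 5358.5 UMIs and 1899 genes, against 8560.5 and 2609.5 in members without Kap. In those 80 the organic anion carrier Slc22a6 had 508 CPM against 28.0 in members without Kap (18.1, 15.6 to 21.0), Slc5a10 had 197 against 5.22, the cytochrome Cyp2e1 had 735 against 63.3, and Slc13a3 had 499.7 against 43.4. These are genes that stood higher in S3 cells as well. Slc34a3 ran the other way with 22.3 CPM against 156, as did Gc with 3.43 against 146 and Slc5a2 with 404 against 1031. Of 20 organic ion carriers 13 stood higher and 1 lower (median 0.86), where 12.8% of 13284 measured genes stood higher and 19.4% lower. Cell by cell, over 1525 thinned core members, Pearson's r on log counts was 0.55 between Slc22a6 and Kap and 0.46 between Kap and Cyp2e1. These cells share 1 library and 1 depth. Of 210 thinned S3 cells, 176 had a Slc7a13 UMI and 208 had a Kap UMI. S3 cells in which Slc7a13 was missed could meet the rule of the members. Their part in the Kap group was not tested. Kap was seen in 6.53% (5.43 to 7.78) of the thinned members, against 4.62% (3.27 to 6.31) of lymphocytes, and the members had a mean of 1.39 Kap UMIs per cell against 0.132 in lymphocytes.

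The members were also ranked by their joint share of Slc5a2 and Slc5a12, genes that the rule used, so the split is a description. The 639 members with the highest joint share (at least 2015 CPM) were set beside the 640 with the lowest (at most 994). Slc34a3 had 270.3 CPM in the highest and 51.7 in the lowest, Slc7a8 392 and 93.6, Slc43a2 533 and 127, the carbonic anhydrase Car12 301 and 70.4, and Adra1a, an adrenergic receptor, 103 and 21.2. Kap ran against the share, with 82.7 CPM in the highest and 952 in the lowest. Among core members alone (551 and 551) Slc34a3 still had 277 and 84.7 CPM, Adra1a 111 and 34.0 and Kap 81.5 and 1283. Malat1 was at 0 in 13.5% of the highest and 56.4% of the lowest, or 12.9% and 43.2% in the core. Genes of immune cells ran against the share: Cd74 had 23.7 CPM in the highest and 511 in the lowest, and Jchain 6.13 and 1121. So did Tmsb4x (42.9 and 1074) and the injury and stress genes Vcam1 (0.613 and 45.7), Vim (2.45 and 79.4) and Atf3 (1.43 and 114). Other injury genes ran with the share, Spp1 at 1778 and 878 CPM and Fga at 18.4 and 5.30. The median mitochondrial share was 23.3% in the highest and 7.70% in the lowest. In the core Cd74 had 22.1 and 317 CPM, at mitochondrial shares of 23.5% and 17.5%. The part of these in the split was not tested.

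The FA library was searched with the same rule, and 2252 of its 15922 kept barcodes met it (14.1%, 13.6 to 14.7). These FA cells were shallower, with a median of 3844 UMIs against 7832 in the members, and 70.8% of them reached a marker share of 2000 against 86.1%. Slc7a13 was listed at 0 throughout FA, so the FA cells may include S3 cells. With control barcodes of any Slc7a13 value in place of the members (2163), the medians below kept their sign unless stated. The rule's own carriers describe the FA cells. Slc5a2 had 534 CPM in FA cells and 1011 in the members, Slc34a1 1927 and 5571, and Slc6a19 96.4 and 578. In the cells past a marker share of 2000, Slc5a2 had 875 CPM in FA and 1167 in control, and Slc6a19 had 152 and 669.

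Of 14796 genes measured in both, 26.2% stood at least 1.5-fold higher in FA cells and 16.1% lower, with a median log2 ratio of 0.10. Tubular injury genes stood far higher. Of 19 measured, 17 were higher in FA cells and none lower, with a median of 3.38 (3.16 among cells past a marker share of 2000, 3.11 among barcodes with a Malat1 UMI). Spp1, a secreted glycoprotein of injured and distal tubule, had 47467 CPM in FA cells and 1350 in the members, a ratio of 35.2 (34.7 to 35.6). Spp1 also stood at 1858 CPM in FA lymphocytes and 208 in control lymphocytes. The fibrinogen chains Fgg (635 and 19.1 CPM), Fga (301 and 13.2) and Fgb (275 and 8.89) and the adhesion molecule Vcam1 (336 and 15.8) stood with it, as did the transcription factor Sox9 of tubule repair (51.0 and 2.32). Havcr1, the injury molecule KIM-1, was listed at 0 throughout control and has no ratio.

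**Figure D4:**
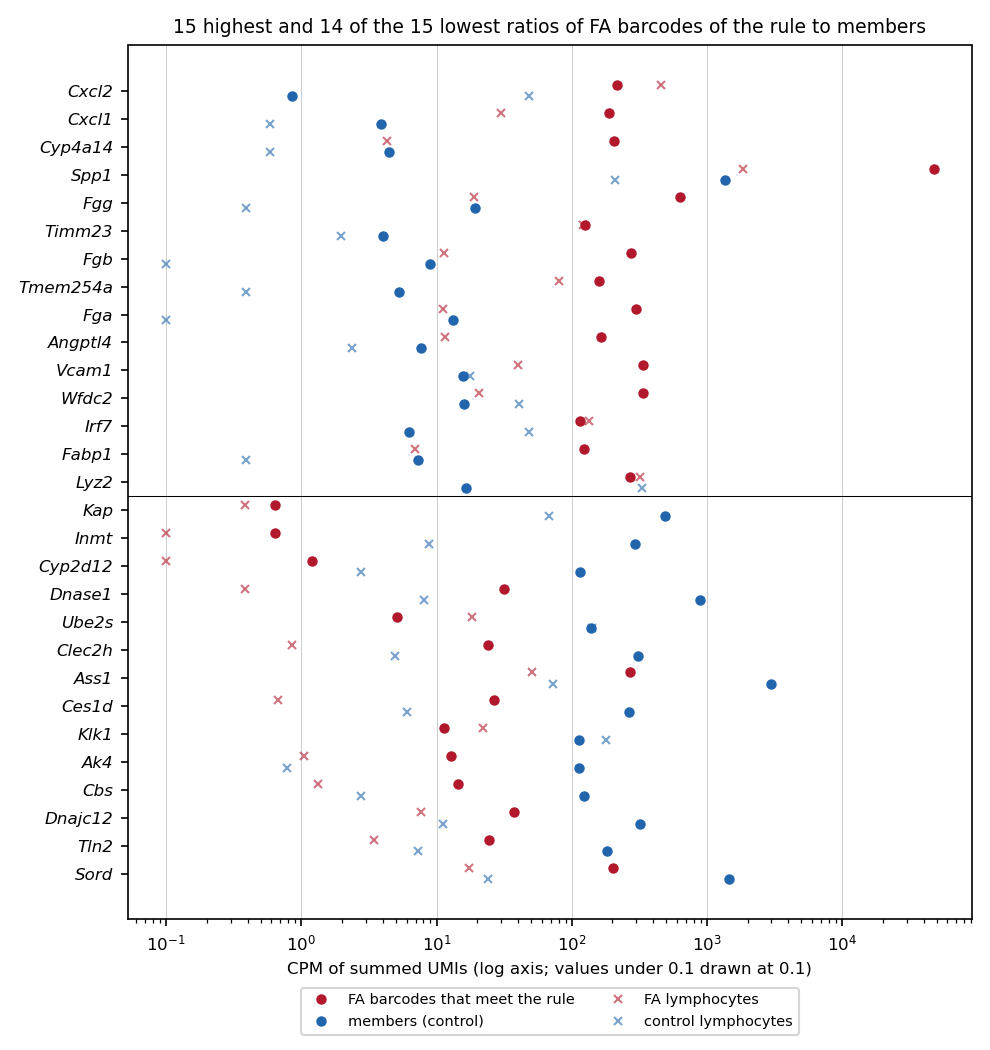
CPM on a log axis of the 15 genes with the highest ratio of FA cells to members and 14 of the 15 with the lowest (circles), with crosses for lymphocytes of the same library and values under 0.1 drawn at 0.1. Spp1, Fgg and Vcam1 lie well above their lymphocyte level in FA cells, while Cxcl2, Timm23, Irf7 and Lyz2 do not.

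The chemokines Cxcl2 (218 CPM in FA cells, 0.849 in the members) and Cxcl1 (189 and 3.85), the interferon factor Irf7 (114 and 6.28) and the lysozyme Lyz2 (269.7 and 16.5) were also among the 15 highest ratios. FA lymphocytes had 453 CPM of Cxcl2, 30.1 of Cxcl1, 134 of Irf7 and 321 of Lyz2, so Cxcl2, Irf7 and Lyz2 were at least as high in cells of another type. Summed macrophage markers, Cd74 and Lyz2 among them, stood at 1037 CPM in FA cells, 247 in the members and 3080 in FA lymphocytes. Neutrophil markers stood at 179 CPM in FA cells and 20.8 in the members, and endothelial markers at 26.8 and 178. Their part was not tested. Timm23 (126 and 4.02) and Tmem254a (160.1 and 5.26) stood at 122 and 79.8 CPM in FA lymphocytes and at 1.96 and 0.392 in control lymphocytes, a gap between the libraries seen in another cell type too. The remainder were the PPAR targets Cyp4a14 (206 and 4.41), Angptl4 (164 and 7.64) and Fabp1 (123 and 7.24), and the protease inhibitor Wfdc2 (334 and 16.0). C3 of complement had 1521 and 102 CPM.

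Immediate early and stress genes stood higher in FA cells in 16 of 18, none lower (median 1.69, from 0.67 without likely doublets to 1.82). Fos had 740.2 CPM in FA cells and 163 in the members, Jun 849.6 and 238, and Atf3 371 and 40.0. Malat1 differed too, with 92832 CPM in FA cells and 37426 in the members. It was seen in 97.3% (96.5 to 98.0) of thinned FA cells and 68.0% of thinned members. Among barcodes with a Malat1 UMI the stress list's median was 1.37. FA lymphocytes had 3044 CPM of Fos and control lymphocytes 2259.

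Carriers were mixed in FA cells. Of 17 amino acid carriers 8 stood lower and 3 higher (median -0.58): Cltrn had 832 CPM in FA cells and 2073 in the members, Slc7a7 180 and 378, and Slc43a2 143 and 331, while Slc6a18 had 113 and 10.5. Slc34a3 had 38.1 and 151 CPM and Slc26a1, a sulphate exchanger, 37.0 and 141. Slc13a1, the apical sulphate carrier, stood at 1989 CPM in FA cells and 313 in the members, a ratio of 6.36 (6.18 to 6.55), and at 2494 and 355 CPM past a marker share of 2000. Among carriers lower in the members than in S3 cells, Slc5a10 (89.3 and 11.7), Slc5a1 (10.1 and 0.679), Slc22a6 (108 and 44.8) and Slc22a12 (183 and 62.8) stood higher, while Slc22a8 (112 and 359), Slc22a28 (3.68 and 59.0) and Slc22a30 (5.03 and 53.9) stood lower. The Slc7a13 limit took S3 cells out of the members but could not act in FA. The part of S3 cells in the higher levels of these carriers was not tested. Of 20 organic ion carriers 5 stood higher and 7 lower, and the list's median was 0.07, or -0.03 when scaled by the median ratio and -0.26 with control barcodes of any Slc7a13 value. Slc4a4 was within 1.5-fold at 1589.8 and 1831 CPM. Of 16 genes of megalin endocytosis 2 stood higher and 5 lower, with Lrp2 at 698 and 1127 CPM and Cubn at 129 and 215.

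Several metabolic lists stood lower in FA cells, and fatty acid oxidation did not. Amino acid breakdown and creatine synthesis had 14 of 20 lower and none higher (median -1.10, from -1.23 to -0.94). Gatm had 411 CPM in FA cells and 2655 in the members, and the inositol oxygenase Miox 522 and 3008. Ass1, which makes the precursor of arginine, had 269 and 2984 CPM (0.0903, 0.0872 to 0.0935). Of 14 genes of gluconeogenesis and ammonia 10 stood lower and 2 higher (median -0.95). G6pc had 162 CPM in FA cells and 647 in the members and the sorbitol dehydrogenase Sord had 201 and 1455, while Pck1 had 2503 and 851. In fatty acid oxidation 8 of 26 stood higher and 6 lower (median 0.26, from 0.04 to 0.35): Cyp4a10 had 261 and 21.2 CPM, whereas Fabp3 had 116 and 395. Nuclear-encoded oxidative phosphorylation had 18 of 32 lower and none higher (median -0.62), and mitochondrially encoded genes 8 of 13 lower and 1 higher (-0.91, or -0.32 without likely doublets), at median mitochondrial shares of 13.0% in FA cells and 19.3% in the members.

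**Figure D5:**
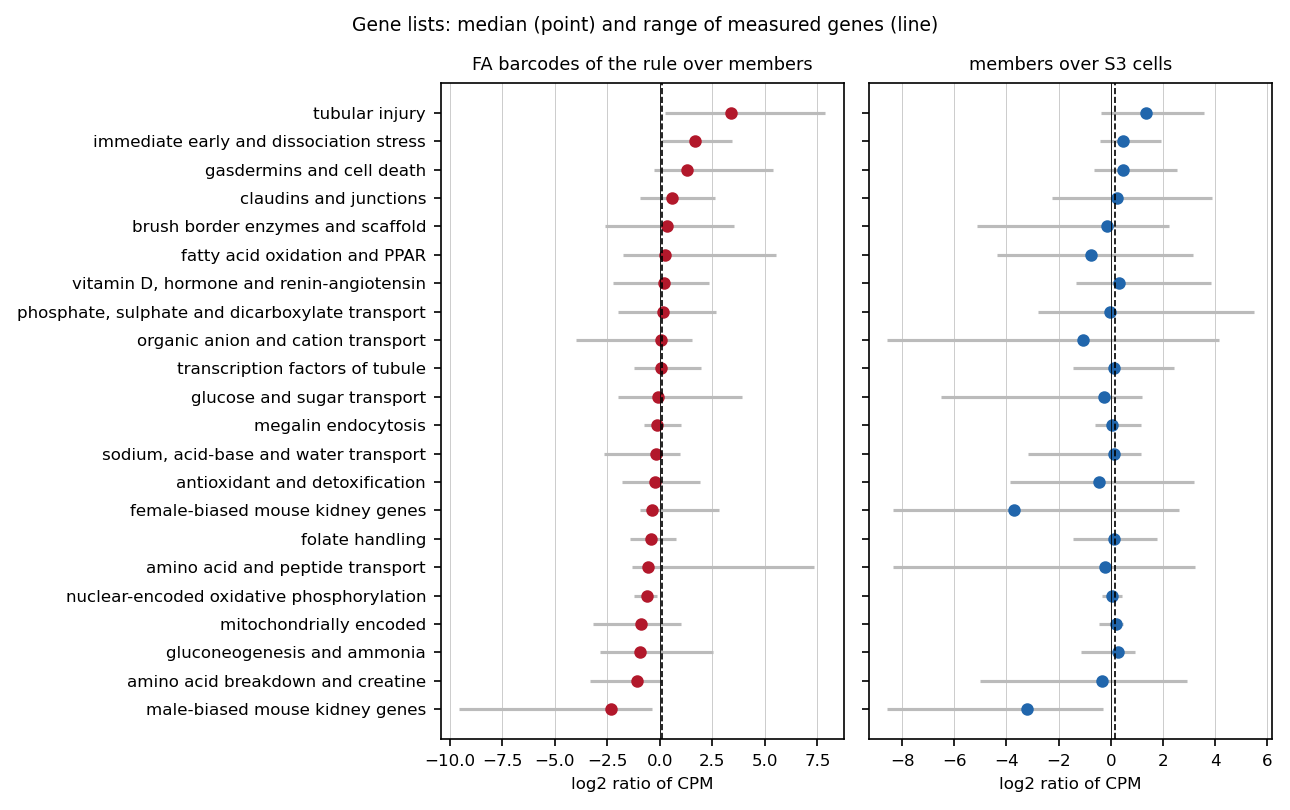
Median log2 ratio of each gene list for FA cells over members and for members over S3 cells, with grey lines for the range over its genes and the median of all measured genes as a dashed line. Tubular injury (3.38) and stress genes (1.69) lie farthest right in FA cells, and organic ion carriers (-1.05) lie left in members over S3 cells. Medians near 0 change sign with the scaling.

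The lowest ratios of FA cells to members were those of Kap (0.639 CPM in FA cells, 485 in the members) and Inmt, a methyltransferase (0.639 and 292). Cyp2d12 (1.2 and 116), Dnase1 (31.7 and 881), Clec2h (23.9 and 308), Ces1d (26.6 and 266), Klk1 (11.3 and 113), Ak4 (12.8 and 113), Cbs (14.4 and 124), Dnajc12 (37.3 and 318) and Tln2 (24.3 and 183) were further genes of that group, beside Ass1 and Sord. Ube2s, with 5.11 and 138 CPM, stood at 18.2 CPM in FA lymphocytes and 142 in control lymphocytes. Genes known to be higher in male mouse kidney stood lower in 6 of 7 and higher in none, where the control library carried Y-linked transcripts and the FA library did not. Of the hormone genes, Cyp24a1 had 186 CPM in FA cells and 59.4 in the members and the vitamin D receptor Vdr had 133 and 55.4, while Kl had 55.7 and 264 and Cyp27b1 17.0 and 36.4. Hnf4a had 138 and 311 CPM and Maf 541 and 1278.

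The gasdermins, pore-forming proteins of lytic cell death, were sparse. Gsdmd had 4.71 CPM in FA cells and 1.19 in the members (3.97, 2.37 to 6.87). Both were below the lymphocytes of their library (23.1 CPM in FA, 21.2 in control). Gsdmd was seen in 0.728% of thinned FA cells and 0.168% of thinned members. Among those with the marker share of core members, it was seen in 3 of 1127 FA cells (0.266%, 0.0549 to 0.776). In thinned core members it was seen in 3 of 1525 (0.197%, 0.0406 to 0.574), and these 2 intervals overlap. Gsdme had 23.8 CPM in FA cells and 10.4 in the members (2.29, 1.90 to 2.76), above the 8.85 and 3.53 CPM of lymphocytes. Gsdme was seen in 4.93% (3.97 to 6.04) of thinned FA cells and 1.95% (1.36 to 2.71) of thinned members. Among those with the marker share of core members, it was seen in 41 of 1127 FA cells (3.64%, 2.62 to 4.90). In thinned core members it was seen in 28 of 1525 (1.84%, 1.22 to 2.64), and these intervals narrowly overlap. Gsdme was also seen in 3.33% (1.35 to 6.75) of thinned S3 cells, which Slc7a13 could not keep out of the FA cells. Their part was not tested. Of 15 genes of gasdermins and cell death 11 stood higher in FA cells and none lower (median 1.30, or 0.48 without likely doublets). Over all genes measured 26.2% stood higher and 16.1% lower. Casp4 had 10.9 and 1.64 CPM and Pycard 53.3 and 24.7, and FA lymphocytes had 61.0 and 355 CPM of these genes.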

How the data were processed

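The deposited table holds UMI counts per gene and barcode, per the labels from cells captured in droplets with barcoded beads; its values are whole and none lies below 0, so they were taken as raw counts. The submitters' processing notes name Seurat and mm10; the sources used here name no aligner, counting tool or filter. Barcodes of the start C3 were taken as control by the letter and by elimination, the other start being FA3. No column was left unmapped.

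Gene names of 230 pairs of synonyms were joined. Barcodes with at least 500 UMIs, at least 200 genes and at most 50% mitochondrial UMIs were kept, and likely doublets were marked (0.8% for each 1000 barcodes) but kept. Summed counts of a group were scaled to CPM, which are not corrected for gene length, so levels are compared within a gene only. A gene was measured at 20 or more UMIs over both groups and counted as higher or lower at 1.5-fold. Against a group without UMIs the ratio used a floor of 3. Shares of cells with a UMI used cells thinned to 2000 UMIs. With 1 library in each condition no test was made, and ratios between cells of 1 library describe that library.

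The members and gene lists were chosen with earlier results of these data known. Named genes are the rule genes, the 20 highest in level and in ratio to other cells, the 10 highest and lowest against S3 cells and by Slc5a2 and Slc5a12 share, the 15 highest and lowest in FA, the 10 most variable and the extremes of each list. Ranked genes needed 100 CPM and 50 UMIs in the higher group. Mitochondrial, ribosomal protein, haemoglobin and immunoglobulin genes, predicted genes with a number, and Xist, Tsix and Y-linked genes were left out of the ranking; autosomal genes that differ between male and female kidney, such as Kap, were ranked. Some genes that the rule names are not reported here. Genes given for the Malat1 and Kap bands were chosen after their values were seen. Python 3.11.15, NumPy 2.4.6, SciPy 1.17.1, pandas 2.3.3, scikit-learn 1.9.0 and Matplotlib 3.10.9 were used, and the comparison code was tested on simulated data. Alternatives changed the mitochondrial limit, the marker minimum, doublets, scaling, the count minimum, weighting, thinning and the sets compared.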

Additional observations from a re-analysis of the deposited data

How the results depend on the processing

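Counts of genes past 1.5-fold stayed within 1.5 times of the reported count under the alternatives run, with 2 exceptions. Genes lower in the members than in S3 cells numbered 2626 when 1 UMI sufficed, against 1508. Genes higher in the members than in the other cells numbered 5312 when scaled by the median ratio, against 3097 (30.6% higher and 35.3% lower, against 17.8% and 49.1%). Against S3 cells that scaling gave 19.7% higher and 15.4% lower, against 25.4% and 11.1%. The cause was not tested. A limit of 20% mitochondrial UMIs left 995 members of 1918. The variance over mean of Kap was 26.8 in cells thinned to 1000 UMIs, against 49.8, which fewer UMIs a cell lower by construction. Of 1622 recomputed values, 1177 stayed within their limits, 444 moved past them and 1 reversed. Leaving out likely doublets moved 68 values of single genes and lists and left 71 within their limits. The median of 4 female-biased genes against other cells was -0.45 when 1 UMI sufficed, against 0.94. Of the alternatives, 3 were chosen after seeing the data: a marker share of 2000, any Slc7a13 value, and a Malat1 UMI; they left 1652 members, 2163 control barcodes and 1325 members. No paired analysis was possible because each condition has 1 library. For the same reason no animal-to-animal spread is known.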

Other observations

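Genes of folate handling were read because folic acid was the agent. Of 17 measured against the other control cells, 10 stood at least 1.5-fold higher in the members and 3 lower (median log2 ratio 1.09). Over all genes measured in that comparison 17.8% stood higher and 49.1% lower. The reduced folate carrier Slc19a1 had 48.2 CPM in the members and 5.68 in the other cells. In FA cells 3 of 16 stood higher and 7 lower (median -0.44), where 26.2% of all genes measured stood higher and 16.1% lower. Slc19a1 had 82.6 CPM in FA cells and 48.2 in the members, a ratio of 1.72 (1.57 to 1.88). The folate enzyme Mthfd1 had 51.7 CPM in FA cells and 125 in the members, and Folr1 had 259 and 420.1, both on the other side of Slc19a1.

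Junction genes were set against the other control cells, a mixture of types. Cldn2, the claudin of the leaky proximal junction, had 165 CPM in the members and 17.8 in the other control cells, and Cldn4, a claudin of the distal tubule, had 0.849 and 26.4. Cdh2 (N-cadherin) had 18.7 and 3.96 CPM, while Cdh1 (E-cadherin) had 5.66 and 59.7. In FA cells Cldn2 had 315 CPM against 165 in the members, Cdh6 had 37.7 against 6.17, and Cdh1 had 14.1 against 5.66. Of 15 junction genes measured 5 stood higher in FA cells and 1 lower, where 26.2% of all genes measured stood higher and 16.1% lower.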
